A study of Mus musculus with 12 samples.

Results

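The 10 genes described here are transcripts by which tissue macrophages are commonly recognised, namely Csf1r, Adgre1, Cd68, Mrc1, C1qa, C1qb, C1qc, Tyrobp, Fcer1g and Aif1. They were taken by gene symbol, although the list was chosen with earlier results of these data known. All 10 were found among the 25899 genes of the deposited table, Adgre1 under its older symbol Emr1. All 10 also lay among the 12094 genes with a mean of 1 RPKM (reads scaled by gene length and library size) or more, which were compared between genotypes. RNA was sequenced from first molar germs of the lower jaw of C57BL/6 mice on postnatal day 4, of which only the apical portion, where the root forms, was kept. One group of 6 libraries came from Nfic-/- mice, called null here, and the other group of 6 from Nfic+/- littermates, called heterozygous here. Each genotype carried the library numbers 5 to 10. Nfic encodes a nuclear factor I transcription factor, and the study asked how its loss acts on molar root formation. The controls carried 1 disrupted copy themselves, so no wild-type molar was compared. No source used here gives the kind of Nfic allele or says whether a library held 1 animal or several. P-values therefore measure the spread between these libraries, which may be partly technical.

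Macrophages are phagocytes that settle in most tissues before birth and live there on signals through the receptor Csf1r, whose ligands are Csf1 and Il34. They clear dying cells and matrix fragments, make the C1q subunits that start the classical complement cascade, and signal through small adaptor proteins that carry an immunoreceptor tyrosine-based activation motif (ITAM). In the jaw, cells of the same lineage also fuse into the osteoclasts that resorb bone around a growing tooth. Most of the 10 genes are not exclusive to macrophages. Tyrobp and Fcer1g are also used by neutrophils, natural killer cells and mast cells, Mrc1 by lymphatic endothelium, and Csf1r by osteoclast precursors.

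The 10 transcripts were present at low to moderate levels in every molar germ. On the length-corrected RPKM scale, the mean over the 12 libraries was highest for C1qa at 13, C1qb at 12.8 and Tyrobp at 11.1. Fcer1g at 8.14, Csf1r at 7.62 and C1qc at 7.07 came next, and Mrc1 at 3.94, Cd68 at 2.91, Adgre1 at 2.70 and Aif1 at 1.31 were the lowest. Not every step of this order held in each library. Tyrobp stood above Fcer1g, C1qc above Mrc1 and Adgre1 above Aif1 in 12 of 12 libraries. C1qa and C1qb could not be ordered, with a mean log2 ratio of 0.03 (SD 0.105) and C1qa ahead in 8 of 12 libraries. The same held for Fcer1g and Csf1r (0.06, SD 0.126), Mrc1 and Cd68 (0.19, SD 0.697), and Cd68 and Adgre1 (0.25, SD 0.550), each in the stated order in 8 of 12. C1qb stood above Tyrobp in 10 of 12 libraries and Csf1r above C1qc in 11 of 12. The fewest reads behind a member value were 43, for Aif1 in null library 6, and the most 5092, for Csf1r.

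Macrophage genes are classic targets of the transcription factor PU.1, encoded by Spi1, which binds a purine-rich site with the core GAGGAA. The bases before the start sites of 4 members are printed to show where those letters lie in genes that varied together across the libraries. The sequences are RefSeq promoter windows on GRCm38.p6, given 5′ to 3′ on the gene's strand and limited to bases before the annotated gene. Capitals mark the core on either strand (GAGGAA, or TTCCTC where it lies on the opposite strand), and in C1qc the longer site GAGGAAGT, read there as ACTTCCTC. Mrc1 lies at chr2:14229164-14229391 on the plus strand. C1qb at chr4:136886201-136886450, C1qc at chr4:136893066-136893164 and Cd68 at chr11:69666171-69666420 lie on the minus strand.
Mrc1: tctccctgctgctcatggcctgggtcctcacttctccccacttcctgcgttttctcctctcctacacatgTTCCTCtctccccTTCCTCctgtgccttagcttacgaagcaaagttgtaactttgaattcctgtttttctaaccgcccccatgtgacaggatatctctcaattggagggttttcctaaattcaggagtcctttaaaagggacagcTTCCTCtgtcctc
C1qb: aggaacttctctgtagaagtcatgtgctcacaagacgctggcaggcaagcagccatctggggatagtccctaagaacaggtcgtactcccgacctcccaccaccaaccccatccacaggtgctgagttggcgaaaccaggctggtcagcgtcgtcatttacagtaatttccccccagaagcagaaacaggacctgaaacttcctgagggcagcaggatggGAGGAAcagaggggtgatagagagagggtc
C1qc: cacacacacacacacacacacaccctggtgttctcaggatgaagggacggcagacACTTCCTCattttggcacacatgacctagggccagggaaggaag
Cd68: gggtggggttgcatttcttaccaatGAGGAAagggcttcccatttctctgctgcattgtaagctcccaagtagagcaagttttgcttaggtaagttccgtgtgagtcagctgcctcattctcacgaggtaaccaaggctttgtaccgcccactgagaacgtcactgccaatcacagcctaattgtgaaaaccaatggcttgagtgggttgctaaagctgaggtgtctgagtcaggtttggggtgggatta
Promoter entries were matched for 6 members, these 4 with Fcer1g and Aif1, and not for Adgre1, C1qa, Tyrobp and the growth factor receptor gene. In the 250 bases before the start, GAGGAA lay on either strand in 5 of the 6, against 23.3% of 32851 promoters of the same length, and Fcer1g was the one without it. These counts used all 250 bases, also those that the limit to bases before the annotated gene leaves out. Mrc1 held 3 matches. The only match of Aif1 lay at 7 to 2 bases before its start, inside the annotated gene, since its limited window ended 17 bases before the start. GAGGAAGT, which contains GAGGAA, occurred in C1qc alone of the 6 and in 2.44% of all promoters. Cd68 held 1 match to TTGCNNAA (the C/EBP site; 9.56% of all) and 2 to TGANTCA (the AP-1 site; 6.75% of all), both read on either strand, and no other member window did. CACGTG, an E-box (6.02% of all), and TATAAA (12.4% of all) occurred in none of the 6. These matches describe the letters only. Spi1 itself, listed as Sfpi1 and named here because of the motif, had 2.06 ± 0.618 RPKM in the heterozygous and 1.62 ± 0.818 RPKM in the null libraries (SD, n = 6 each).

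Every one of the 10 genes had a lower mean in the null than in the heterozygous molars, but no difference passed the test. The null minus heterozygous differences on the log2(RPKM + 1) scale ran from -0.66 for Mrc1 to -0.18 for Aif1, with a median of -0.44, beside a median of -0.003 over all 12094 genes. A difference below 0 was found for 51.1% of all genes tested. With limma and Benjamini-Hochberg adjustment 0 of the 10 members passed an adjusted p of 0.05, as did 0% of all genes, where the smallest adjusted p was 0.934. At an unadjusted p under 0.05, 0 members were lower in the null libraries, beside 2.72% of all genes, and the members' p-values ran from 0.0968 to 0.412. The members were also measured with a wider error than most genes, with a median SE of 0.298 beside 0.113 over all genes. The 10 differences are not independent pieces of evidence, since the members varied together across libraries, as described further on.

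**Figure D1:**
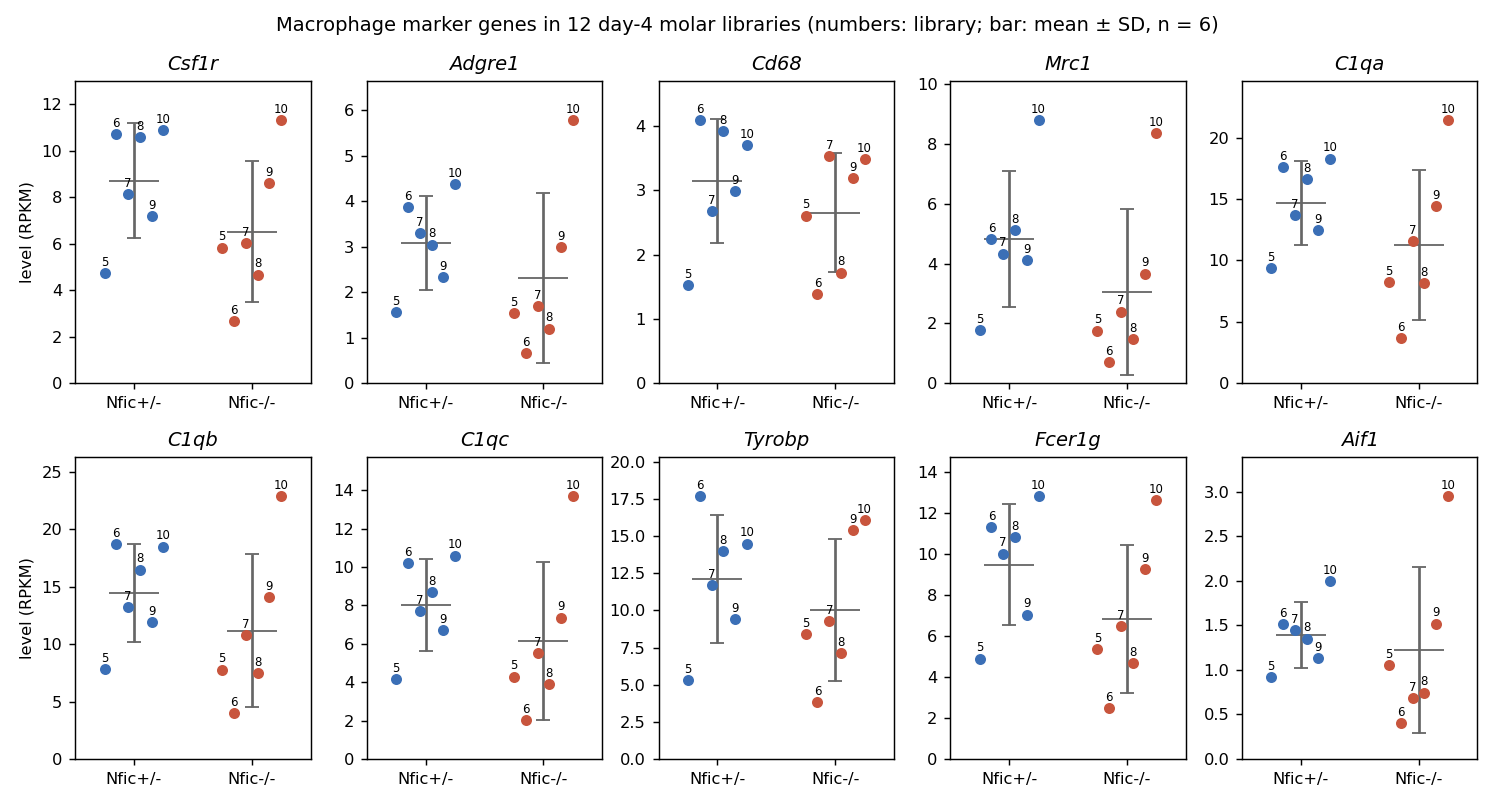
RPKM of each of the 10 macrophage genes in every library, heterozygous and null, with 6 libraries per genotype, the mean and the SD. The ranges of the genotypes overlap for all 10 genes, and null library 6 is the lowest of the 12 for each.

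Csf1r encodes the receptor for the growth factors Csf1 and Il34, on which macrophages depend (ENSMUSG00000024621, chromosome 18, plus strand, GRCm38). Its RPKM in the heterozygous libraries ran from 4.75 through a median of 9.37 to 10.9. The null libraries ran from 2.68 through a median of 5.93 to 11.3. Null library 10 was thus the highest of all 12 and null library 6 the lowest, and in the null group 2 libraries lay below the lowest heterozygous one. The means were 8.71 ± 2.48 and 6.53 ± 3.04 (SD, n = 6 each), a difference of -0.42 (SE 0.262, 95% interval -0.99 to 0.14, limma adjusted p = 0.989). In a bulk sample such as this, fewer cells of a type and less RNA per cell cannot be told apart.

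Adgre1 encodes the adhesion receptor that the F4/80 antibody detects on mouse macrophages (ENSMUSG00000004730, chromosome 17, 57358691 to 57483527, plus strand). Heterozygous libraries held 1.56 to 4.38 RPKM with a median of 3.18, and null libraries 0.667 to 5.78 with a median of 1.61. The null group therefore held both extremes, with 3 libraries under the lowest heterozygous value and 1 above the highest. The means of 3.09 ± 1.03 and 2.31 ± 1.86 differed by -0.42 (SE 0.292, 95% interval -1.05 to 0.21, limma adjusted p = 1). Adgre1 was lower in the null library for 4 of the 6 numbers.

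Mrc1, the mannose receptor CD206, takes up glycoproteins and collagen fragments and is typical of resident macrophages (ENSMUSG00000026712, chromosome 2, 14229392 to 14332057, plus strand). The heterozygous libraries ran from 1.77 RPKM in library 5 through a median of 4.57 to 8.78 RPKM in library 10. The null libraries ran from 0.700 RPKM in library 6 through a median of 2.08 to 8.35 RPKM in library 10. The 2 libraries numbered 10 stood far above the other 10, and across the 12 libraries the highest value was 12.5 times the lowest, the widest range of any member. The means were 4.82 ± 2.27 and 3.06 ± 2.78, and the difference of -0.66 (SE 0.368, 95% interval -1.45 to 0.14, limma adjusted p = 0.973) was the largest of the 10. Mrc1 was the one member that was lower in the null than in the heterozygous library at each of the 6 numbers. At number 5, however, the values were nearly equal, at 1.77 RPKM in the heterozygous and 1.76 RPKM in the null library. An exact 2-sided permutation test over 924 assignments of the library labels, which does not use the numbers, gave p = 0.141 unadjusted.

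Cd68 encodes a glycoprotein of lysosomes and endosomes that is abundant in phagocytes (ENSMUSG00000018774, chromosome 11, 69664213 to 69666153, minus strand). Heterozygous libraries held 1.53 to 4.09 RPKM with a median of 3.35, and null libraries 1.39 to 3.54 with a median of 2.90. The ranges nearly coincided, and the lowest heterozygous library, number 5, lay close to the lowest null one, number 6. The means of 3.15 ± 0.965 and 2.66 ± 0.920 differed by -0.19 (SE 0.200, 95% interval -0.62 to 0.24, limma adjusted p = 1). Without null library 6 the difference was -0.07.

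The C1q genes encode the 3 chains of one protein and lie side by side on chromosome 4 on the minus strand, C1qb at 136880129 to 136886187, C1qc at 136889804 to 136893065 and C1qa at 136895917 to 136898803. C1qa ran from 9.38 to 18.3 RPKM with a median of 15.2 in the heterozygous libraries and from 3.70 to 21.4 RPKM with a median of 9.92 in the null libraries. C1qb ran from 7.86 to 18.7 RPKM with a median of 14.9 and from 4.02 to 22.9 RPKM with a median of 9.30. C1qc ran from 4.17 to 10.6 RPKM with a median of 8.20 and from 2.02 to 13.7 RPKM with a median of 4.91. For each chain the null group held both the lowest library, number 6, and the highest, number 10. The differences were -0.49 for C1qa (SE 0.30, 95% interval -1.13 to 0.16), -0.46 for C1qb (SE 0.317, -1.14 to 0.22) and -0.47 for C1qc (SE 0.315, -1.14 to 0.21), with limma adjusted p of 0.989, 1 and 1.

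The chains kept nearly the same proportion to each other whatever their level. C1qa over C1qb stayed between 0.920 and 1.19 and C1qc over C1qb between 0.503 and 0.597 in the 12 libraries, while C1qb itself moved between 4.02 and 22.9 RPKM. C1qa over C1qb averaged 1.04 ± 0.0849 in the heterozygous and 1.02 ± 0.0720 in the null libraries (SD, n = 6 each).

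Tyrobp and Fcer1g encode ITAM adaptors, the first (DAP12) the partner of Trem2 and related receptors, the second the common gamma chain of Fc receptors. Tyrobp (ENSMUSG00000030579, chromosome 7, 30413760 to 30417585, plus strand) ran from 5.33 through a median of 12.8 to 17.7 RPKM in the heterozygous libraries and from 3.84 through 8.84 to 16.1 RPKM in the null libraries. Fcer1g (ENSMUSG00000058715, chromosome 1, 171229572 to 171234365, minus strand) ran from 4.89 through 10.4 to 12.8 RPKM and from 2.48 through 5.91 to 12.6 RPKM. The highest library of both genes was heterozygous, number 6 for Tyrobp and number 10 for Fcer1g. Tyrobp differed by -0.29 (SE 0.312, 95% interval -0.97 to 0.38, limma adjusted p = 1) and Fcer1g by -0.50 (SE 0.295, 95% interval -1.14 to 0.13, limma adjusted p = 0.980). Tyrobp rested on the libraries numbered 6, without which its difference was 0.04.

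Aif1 encodes Iba1, a calcium-binding protein of the actin cortex used to stain microglia and macrophages (ENSMUSG00000024397, chromosome 17, 35170991 to 35176068, minus strand). It was the least abundant member, with 0.920 to 2.0 RPKM and a median of 1.40 in the heterozygous libraries. The null libraries held 0.40 to 2.95 RPKM with a median of 0.899. Null library 10 stood above all other libraries, and 3 null libraries lay below the lowest heterozygous one. The means of 1.39 ± 0.370 and 1.23 ± 0.929 differed by -0.18 (SE 0.213, 95% interval -0.64 to 0.28, limma adjusted p = 1).

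**Figure D2:**
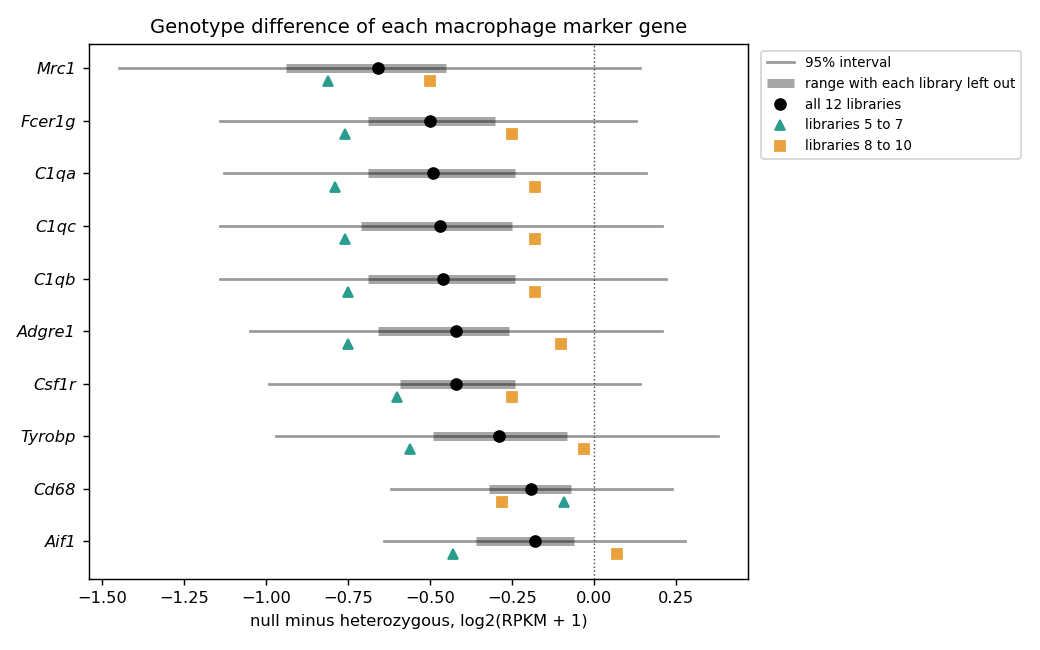
Null minus heterozygous difference of each member on the log2(RPKM + 1) scale over all 12 libraries with its 95% limma interval, and the same difference within libraries 5 to 7 and within libraries 8 to 10. All 10 intervals include 0, and the differences within libraries 8 to 10 lie nearer to 0 than those within 5 to 7 for every member except Cd68.

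The sample-sheet numbers in the column names repeat between libraries 5 to 7 and libraries 8 to 10, so the 12 libraries did not share 1 sheet. No number repeats within either set, each of which holds 3 libraries of each genotype. No label says which libraries shared a sheet, so this split is inferred. Within libraries 5 to 7 the differences ran from -0.81 for Mrc1 to -0.09 for Cd68, and Adgre1, C1qa, C1qb, C1qc and Fcer1g lay at -0.75, -0.79, -0.75, -0.76 and -0.76. Within libraries 8 to 10 they ran from -0.50 for Mrc1 to 0.07 for Aif1, with Adgre1 at -0.10, each C1q chain at -0.18, Csf1r and Fcer1g at -0.25, Cd68 at -0.28 and Tyrobp at -0.03. Whether the 2 sets of libraries differ in their genotype difference was not tested.

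The size of these differences moved with single libraries. Null library 6 was the lowest of the 12 for 10 of 10 members, and its members summed to 21.9 RPKM. A library numbered 10 was the highest for 8 of 10 members, and the null one, with a sum of 119 RPKM, for 6 of them. Heterozygous library 10 summed to 104 RPKM and heterozygous library 5, the lowest of its genotype, to 42.2 RPKM. Without both libraries numbered 6 the differences were -0.43 for Mrc1, -0.24 for Fcer1g, -0.20 for Adgre1, -0.19 for C1qa, -0.18 for Csf1r and C1qc, -0.16 for C1qb, -0.05 for Aif1 and -0.01 for Cd68. Without null library 10 they lay further from 0 for the members it had held up, at -0.94 for Mrc1 and -0.66 for Adgre1. Leaving out 1 library at a time kept all 10 differences below 0, and the value nearest 0 came in each case without null library 6.

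The 10 members behaved as one block across libraries. After the genotype mean was taken from each gene, the 45 pairs of members correlated with Pearson r between 0.633, for Cd68 with Aif1 (Spearman rho 0.483), and 0.996, with a median of 0.943 over the 12 libraries. Against the mean of the other members, C1qc reached r = 0.994 (rho 0.993), C1qb 0.993, Fcer1g 0.990 and Csf1r 0.988, and Cd68 at 0.851 and Aif1 at 0.904 were the loosest. Without null libraries 6 and 10, the farthest from the median, these were 0.994 for C1qc, 0.858 for Cd68 and 0.794 for Aif1. The points share libraries and tissue composition, so these r describe the 12 molar germs and not a link between genes.

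**Figure D3:**
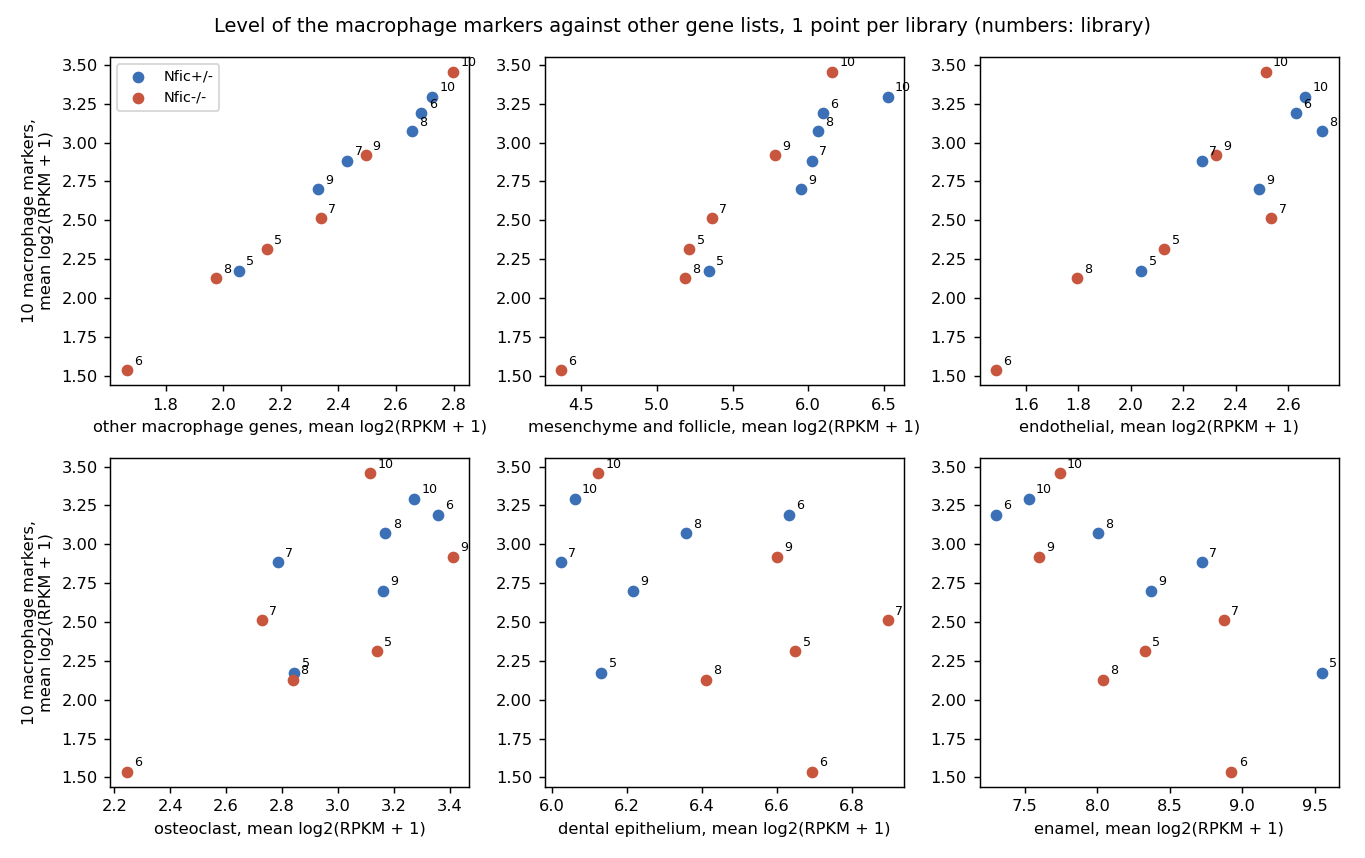
Mean log2(RPKM + 1) of the 10 members in each of the 12 libraries against the mean level of other gene lists. The macrophage genes outside the 10 follow the members most closely (r = 0.992), the mesenchyme and follicle list nearly as closely (r = 0.975), and the dental epithelium list does not (r = -0.248). These r were taken after the genotype means were removed, whereas the plotted levels still hold them.

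The proportions between members were less even than those within C1q. Mrc1 over Csf1r averaged 0.536 ± 0.149 in the heterozygous and 0.406 ± 0.174 in the null libraries (SD, n = 6 each), from 0.261 in null library 6 to 0.806 in heterozygous library 10. At each of the 6 numbers the ratio was lower in the null library, although the 2 ranges overlapped widely. Tyrobp over Fcer1g averaged 1.26 ± 0.174 and 1.51 ± 0.130, and Cd68 over Csf1r 0.360 ± 0.0356 and 0.434 ± 0.105. Mrc1 over Cd68 varied most, between 0.502 in null library 6 and 2.39 in null library 10. The ratios were not tested.

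**Figure D4:**
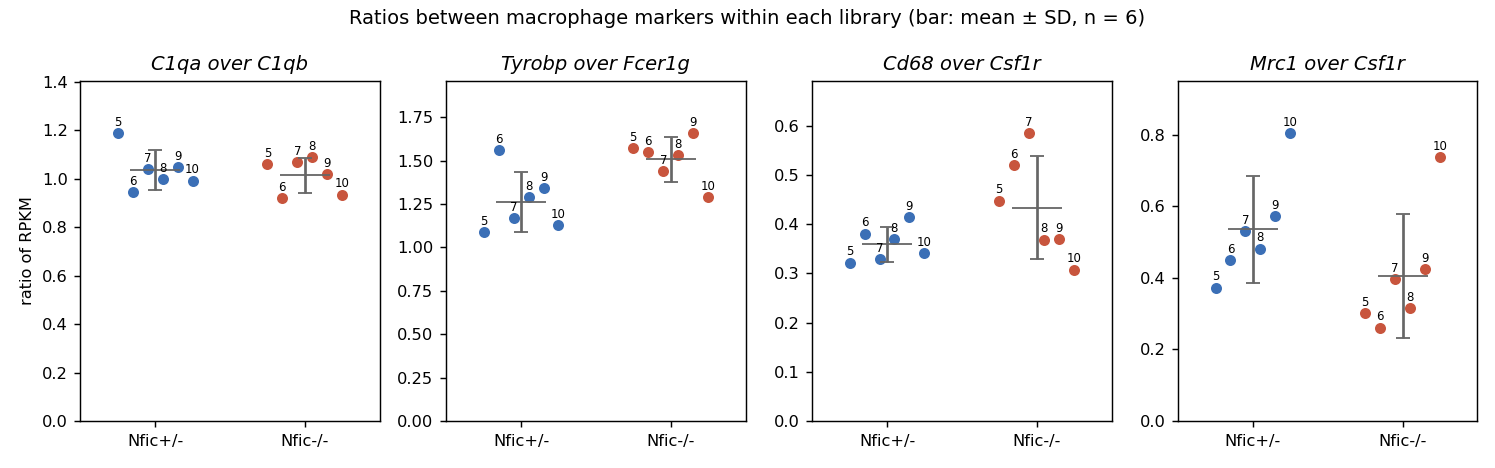
Ratios of RPKM between members in every library, on a linear axis, by genotype, with the mean and the SD. C1qa over C1qb stays within 0.920 and 1.19, whereas Mrc1 over Csf1r spreads from 0.261 to 0.806.

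The members were set beside 65 other genes used for macrophages, of which 33 reached a mean of 1 RPKM. Their mean level followed that of the 10 members with r = 0.992 (rho 1, n = 12). Here and below, each r with the members was taken after the genotype means were removed. This likeness cannot check the label of the group, since the mesenchyme and follicle list reached r = 0.975. Of the 33 genes, 29 had differences below 0, beside 51.1% of all genes tested, with a median of -0.24. Among them, Cx3cr1, the fractalkine receptor, had 3.65 ± 0.976 RPKM in the heterozygous and 2.65 ± 1.77 RPKM in the null libraries. F13a1, the coagulation factor XIII subunit made by resident macrophages, had 4.73 ± 2.34 and 2.84 ± 2.59 RPKM. Maf, a transcription factor of resident macrophages that other molar cells can also express, had a higher mean in the null libraries, with 43.1 ± 7.81 and 50.9 ± 15.7 RPKM (difference 0.20, SE 0.176, limma adjusted p = 1).

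Of the 2 Csf1r ligands, Csf1 was measured at a lower RPKM than its receptor and Il34 close to 0. Csf1 had 3.12 ± 1.07 RPKM in the heterozygous and 2.20 ± 1.23 RPKM in the null libraries, a difference of -0.40 (SE 0.239, limma adjusted p = 0.980). It ranked 22nd of 12084 genes for likeness to the members (r = 0.981, rho 0.986). Il34 had 0.137 ± 0.0787 and 0.110 ± 0.0278 RPKM and was not tested. Of 20 ligands and recruitment factors, 6 were tested, and 5 of those had differences below 0 with a median of -0.16. Cxcl12, a chemokine of stromal cells, had 6.68 ± 3.57 and 4.53 ± 3.73 RPKM.

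The classical complement list and the ITAM list were less uniform in direction, although their mean levels followed the members with r = 0.954 and r = 0.982. Of 10 tested complement genes outside the members, 6 were lower in the null libraries, with a median difference of -0.37. The genes above 0 were Calr (0.13), Cd55 (0.25), Cd59a (0.05) and Cr1l (0.02). C1ra, a protease of the C1 complex whose reads may be shared with its near copy C1rb, had 4.08 ± 1.47 and 2.53 ± 1.21 RPKM. Of 10 tested ITAM receptors and kinases, 6 were lower, with a median of -0.02. Sirpa, the inhibitory receptor for Cd47, had 37.4 ± 7.35 and 46.0 ± 9.32 RPKM, and the adaptor Blnk 9.60 ± 2.17 and 11.6 ± 1.34 RPKM. Trem2, the receptor best known to signal through Tyrobp, had 0.296 ± 0.138 and 0.252 ± 0.124 RPKM and was named here after its values were seen. No tested gene of the other macrophage, ligand, complement and ITAM lists passed the limma threshold, and 1, the macrophage-list gene Sall1, had an unadjusted p under 0.05.

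Other cell types moved with the members to different degrees. The osteoclast list, with Acp5 and Ctsk, summed to 89.2 to 142 RPKM in the heterozygous and 43.2 to 157 RPKM in the null libraries and followed the members with r = 0.748. The neutrophil and monocyte list, led by S100a8, summed to 49.7 to 212 and 32.9 to 161 RPKM with r = 0.548, and Ly6g was at 0.230 ± 0.257 and 0.200 ± 0.121 RPKM. The lymphoid list of 16 genes summed to only 1.34 to 2.87 and 0.533 to 3.67 RPKM, with Cd3e at 0.0230 ± 0.0228 and 0.0270 ± 0.0304 RPKM. The mast cell list of 13 genes summed to 5.63 to 15.6 and 3.69 to 10.6 RPKM. Kit, which other cells also express, was its only gene with a mean of 1 RPKM or more, at 5.88 ± 1.98 and 4.15 ± 1.32 RPKM, and Cpa3 was at 0.469 ± 0.229 and 0.343 ± 0.215 RPKM. The lymphatic list summed to 14.7 to 28 and 13.9 to 23 RPKM, and Lyve1, shared by lymphatic endothelium and resident macrophages, had 1.61 ± 1.10 and 0.929 ± 1.29 RPKM.

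In the stromal and vascular lists most differences also lay below 0, beside 51.1% of all genes, and none of their genes passed the limma threshold. At an unadjusted limma p under 0.05, 10 mesenchyme and follicle, 4 endothelial and 3 pericyte and smooth muscle genes were lower, beside 2.72% of all genes. Of 9 odontoblast genes, 8 had differences below 0 and 5 were lower at that p, yet their list did not follow the members (r = 0.0726). Of 15 mesenchyme and follicle genes, 15 had differences below 0 with a median of -0.61, and their level followed the members with r = 0.975 (rho 0.979, n = 12; r = 0.946 without null libraries 6 and 10). Of 17 endothelial genes, 17 had differences below 0 with a median of -0.32 (r = 0.869), and of 9 pericyte and smooth muscle genes 7 did, with a median of -0.46 (r = 0.930). All 14 dental epithelium genes had differences above 0, with a median of 0.31. Of these, 5 were higher at an unadjusted limma p under 0.05 and 0 passed the limma threshold. In either direction, 646 of all 12094 genes tested had an unadjusted limma p under 0.05. Taken relative to the mesenchyme list, the mean member level was not lower in the null libraries, at -3.12 ± 0.138 in the heterozygous and -2.87 ± 0.115 in the null libraries on the log2(RPKM + 1) scale (SD, n = 6 each), a gap of 0.25. Without a pseudocount that gap was 0.19. Relative to the endothelial list the gap was -0.07, to the pericyte list 0.01 and to the dental epithelium list -0.73. The part of tissue composition in the members' differences was not tested.

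The genes most like the members, by the correlation of their deviations from the genotype means over the 12 libraries, mixed myeloid and stromal genes. They were Unc93b1 (r = 0.997, rho 1), the chaperone of endosomal Toll-like receptors, then Lsp1 (0.996), Fcgrt (0.992), Ms4a6c (0.992), Mxra8 (0.991), Nfatc4 (0.990), Scarf2 (0.990), Mdfic (0.988), Zeb1 (0.986) and Lgals1 (0.986). Zeb1 is a transcription factor of mesenchymal cells and Lgals1 encodes a galectin abundant in them. Such likeness was common, since 988 of 12084 genes, or 8.18%, had an r above 0.9 with the members.

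Facts of the whole series bear on these values as follows. The libraries held 70.2 to 96.4 M reads, of which enamel genes took 4.65% to 18.2%, and the enamel list ran against the members with r = -0.751. Nfic transcript was lower in the null libraries at 6 of 6 numbers but not absent, with 16.8 ± 4.42 and 11.4 ± 3.02 RPKM (difference -0.52, SE 0.178, limma adjusted p = 0.934; exact 2-sided permutation p = 0.0303 for this single gene). Tooth genes were present, with Dspp at 614 ± 129 and 445 ± 135 RPKM and the odontoblast list at 2311 to 5438 RPKM in sum. Much of that sum was Col1a1 (2235 ± 471 and 1635 ± 482 RPKM), which is also in the mesenchyme list. The enamel list summed to 36034 to 142043 RPKM in the heterozygous and 52825 to 140049 RPKM in the null libraries. Whether the libraries held the apical portion alone was not tested. Intestinal epithelium genes summed to 193 to 368 RPKM in the 4 libraries numbered 8 and 9 and to 0.903 to 1.55 RPKM in the others. The members summed to 41.1 to 90.7 RPKM in those 4 libraries and to 21.9 to 119 RPKM in the others.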

How the data were processed

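RNA from the apical part of postnatal day 4 molar germs was sequenced in 12 libraries, 6 per genotype. TopHat2 and the build mm10 are named per the submitters' processing notes. For the aligner's version, the counter and the gene annotation, the entry is "not given in the sources used here". What the authors deposited was 1 table of log2 RPKM for 25899 genes. Its values ran from -11.1 to 16.7, where linear RPKM had been assumed when the test was chosen, so they were turned back to RPKM and the planned test was kept. A gene with no read was listed at 0.9 reads. All of the 7081 low values checked (above that floor and under 20 reads), or 100%, were whole reads within 0.02 reads, which gave each library's depth and the reads per member. RPKM are shares of a library, so a few abundant genes can shift all others.

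Genes averaging at least 1 RPKM were tested as log2(RPKM + 1) with limma 3.58.1 in R 4.3.3 (genotype as the only term, all 12 libraries, Benjamini-Hochberg adjustment, threshold 0.05). GENCODE M21 (GRCm38) held 24987 of the gene identifiers. Promoters came from RefSeq on GRCm38.p6. The procedure was tested on simulated data. Tables and figures used Python 3.11.15, numpy 2.4.6, pandas 2.3.3, scipy 1.17.1 and matplotlib 3.10.9.

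The members and the other gene lists were chosen with earlier results of these data known. Named genes were all members, Nfic, in each other list the 3 genes with the smallest p and, for cell type lists, the 2 most abundant, and the 10 genes most like the members. Cx3cr1, Trem2, Spi1, Il34, Ly6g, Cd3e, Cpa3, Lyve1, Cd55 and Cr1l were named after their values were seen. Genes marked as predicted or as clones were not named, and some genes that the rule names are left out here. Alternatives were other pseudocounts, filters, scalings and variance models, library weights, the library number as a block, each library left out, and sheets or libraries left out.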

Additional observations from a re-analysis of the deposited data

How the results depend on the processing

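Of 340 member differences over 34 alternatives each, 335 stayed below 0. The 5 that did not were Tyrobp at 0.04 without both libraries numbered 6, 0.01 without both libraries numbered 6 and 10, and 0.04 with the replicate block without pair 6, Cd68 at 0.01 without both libraries numbered 6 and 10, and Aif1 at 0.07 in libraries 8 to 10 only. Maf was at -0.03 in libraries 8 to 10 only. The cause was not tested. No alternative brought a member past the threshold, and the smallest adjusted p was 0.0727, for Mrc1 with library weights. Across the table the count of genes past the limma threshold was 0, with 646 at an unadjusted p under 0.05, and became 17 with library weights (9 higher and 8 lower in null) and 11 with the replicate block without pair 6. The series describes 6 pairs of littermates, but no label says that equal library numbers mark a pair. From number 5 to number 10, the deviations of same-numbered libraries gave r = 0.492, 0.00502, 0.310, 0.667, 0.688 and 0.802, and the same number was the closest library for 3 of 6. With the number as a replicate block 0 genes passed in limma (limma smallest adjusted p = 0.0872), and 981 had an unadjusted p under 0.05. Of the members, 1 (Mrc1) had an unadjusted p under 0.05 (difference -0.66, limma adjusted p = 0.505). Of the alternatives, 7 on the inferred split, left-out libraries and enamel reads were added after seeing the data. Leaving out 1 library at a time gave -0.94 to -0.45 for Mrc1 and -0.36 to -0.06 for Aif1. With a pseudocount of 0.1 Mrc1 was at -0.90, Adgre1 at -0.64 and Aif1 at -0.39. The member values rested on 43 to 5092 reads, and their median SE was 0.298 beside 0.113 over all genes. The part of depth in that error was not tested.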

Other observations

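Genes of macrophage activation were split between directions. Of 12 tested members of that list, 7 had differences below 0, with a median of -0.05, and none passed the limma threshold or an unadjusted p under 0.05. The lysosomal genes Lamp1 (193 ± 27.0 and 213 ± 4.73 RPKM in heterozygous and null libraries, SD, n = 6 each) and Ctsd (115 ± 23.8 and 120 ± 8.50 RPKM) are made by most cells. The inflammatory genes Nos2 (0.239 ± 0.285 and 0.206 ± 0.236 RPKM), Tnf (0.0589 ± 0.0617 and 0.0436 ± 0.0403 RPKM) and Il1b (0.208 ± 0.294 and 0.0625 ± 0.0291 RPKM), named after their values were seen, had means below that of every member. The antigen presentation gene Cd74 ranged from 1.06 to 16.5 RPKM and followed the members only weakly (r = 0.366, rho 0.476, n = 12).

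The genes that ran most against the members over the 12 libraries were Golga3, a Golgi protein (r = -0.940, rho -0.923), Fam20c, the Golgi kinase of enamel and dentin proteins (r = -0.939, rho -0.958), and Plek2 (r = -0.932, rho -0.944). Only 11 of 12084 genes had an r below -0.9, beside 988 above 0.9.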
